A study of Mus musculus with 4 samples.

Results

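Small nucleolar RNA (snoRNA) genes were followed across 4 arrays of mouse gastrocnemius muscle. A gene was counted as a snoRNA gene where its annotation symbol began with Snord or Snora and a digit, and it was read from its brightest array cluster that carried no other symbol. Of 22180 genes measured in this way, 73 were snoRNA genes, of which 47 were box C/D genes (Snord) and 26 were box H/ACA genes (Snora). A mean log2 level above the median of all clusters, which is an intensity of 5.81, was required before differences were counted. It was met by 13258 genes and by 60 of the snoRNA genes, 40 of box C/D and 20 of box H/ACA. The other 13 were too dim. Snord88a lay just inside this limit with a mean log2 level of 3.27, and Snord85 and Snora35 lay just outside it, both at 3.24.

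SnoRNAs are short noncoding RNAs that act in the nucleolus as guides. Box C/D snoRNAs pair with ribosomal RNA and direct the methyltransferase fibrillarin to a ribose, and box H/ACA snoRNAs direct the pseudouridine synthase dyskerin to a uridine. A few members of each class are needed for cutting the ribosomal RNA precursor instead. In mammals most snoRNAs are not transcribed from promoters of their own but are trimmed out of introns of a host gene, which is often a ribosomal protein gene, a nucleolar protein gene or a noncoding gene of the Snhg (small nucleolar RNA host gene) kind. Guided modification and cutting of ribosomal RNA are steps of ribosome production, on which protein synthesis in muscle depends.

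The 4 groups had 1 array each. Wild-type mice (WT) and mice in which the transcription factor KLF15 was knocked out in skeletal muscle only (KO) received either sodium citrate vehicle or streptozotocin (STZ), a toxin of the insulin-producing beta cells that is used to make mice diabetic. STZ was given intraperitoneally at 50 mg/kg, in 50 mM citrate at pH 4.5, on 5 consecutive days, and muscle was taken 3 weeks after treatment. The sources used here do not give the strain, sex or age of the mice, the promoter that drives the knockout or the number of animals behind each array. With 1 array per group there was no replicate and no test, so a difference below is one between 2 arrays and its error between animals is unknown.

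The labels and the tissue were checked first. Klf15 had intensities of 50.5 on the WT vehicle array, 72.1 on WT STZ, 19.8 on KO vehicle and 16.04 on KO STZ, so both KO arrays were lower than both WT arrays. All 10 skeletal muscle markers, such as Ckm and Myh4, were bright, with summed intensities between 56395 and 58800. Median intensity ran from 5.73 to 5.96 over the arrays, and percentile 95 was highest on WT STZ. Of the slow-fibre markers (6 of 6 above the level limit), 2 were above 0 for KO against WT under vehicle and 0 after STZ. The slow-fibre markers summed to 893 on WT vehicle, 1013 on WT STZ, 730 on KO vehicle and 600.2 on KO STZ. Adipocyte markers (4 of 6) summed to 155, 162, 191 and 114 in the same order, fibroblast markers (6 of 6) summed to 2850.5, 3059, 3439 and 3474, with 5 of 6 above 0 for KO against WT under vehicle and 3 of 6 after STZ, and macrophage, endothelial and neuron sums ran over 310.2 to 409, 588 to 697 and 23.3 to 27.9. Of 6 erythroid markers 0 were measured. The part of other cells in the snoRNA values was not tested. In whole muscle, fewer cells of a type and less RNA per cell cannot be told apart. Nor can a mature snoRNA and the host intron that contains it be told apart by these clusters. How far RNAs as short as snoRNAs were recovered for each array is not known, so a snoRNA level below is the signal of its cluster.

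SnoRNA levels were highest in WT muscle after STZ. Of the 60 genes above the limit, 45 had their highest value on the WT STZ array, against 32.2% of all genes. The next were KO STZ with 9 genes, where the share over all genes was 19.5%, KO vehicle with 5 (25.1% of all genes) and WT vehicle with 1 (23.3% of all genes). WT vehicle was the lowest array for 31 of the 60, against 20.6% of all genes. Differences are given on the scale of log2(intensity + 3.69), on which dim genes change by less than their true fold. On that scale the WT STZ array stood above the mean of the other 3 arrays by a median of 0.28 for the snoRNA genes and of 0.018 for all genes. KO STZ and WT vehicle were closer to each other, with a median difference of 0.086 in favour of KO STZ.

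**Figure D1:**
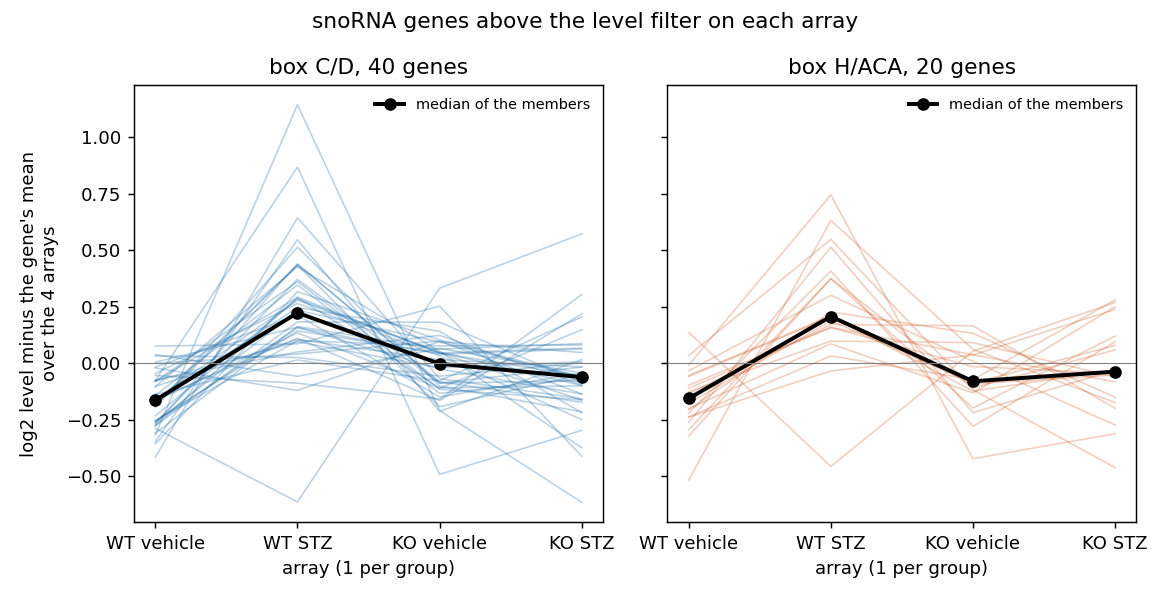
Log2 level of each snoRNA gene above the level limit on each of the 4 arrays, relative to that gene's own mean over the arrays, for 40 box C/D genes and 20 box H/ACA genes. Each thin line is a gene and the black line is the class median; in both classes the median is highest on the WT STZ array.

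Most of the brightest members followed the same order. Among box C/D genes the 6 brightest were Snord82, Snord47, Snord55, Snord99, Snord61 and Snord87. Snord82 lies in the nucleolin gene Ncl. It had intensities of 2042 on WT vehicle, 2642 on WT STZ, 2001 on KO vehicle and 2013 on KO STZ. WT STZ thus stood above a narrow band formed by the other 3 values. Snord61 lies in the RNA-binding protein gene Rbmx. It read 671 on WT vehicle, 1100.0 on WT STZ, 717 on KO vehicle and 662 on KO STZ. Again WT STZ was alone at the top. Snord47 lies in Gas5, a noncoding gene known for hosting a series of snoRNAs, and read 1293, 1760.4, 1264 and 1223 in the same order of arrays. Among box H/ACA genes the 6 brightest were Snora33, Snora44, Snora73b, Snora73a, Snora21 and Snora16a. Snora33, from the ribosomal protein gene Rps12, read 2615 on WT vehicle, 3122 on WT STZ, 2767 on KO vehicle and 2712 on KO STZ. Snora21, from Rpl23, departed from that order, with 169 on WT vehicle, 196 on WT STZ, 206 on KO vehicle and 237 on KO STZ. For Snora21 both KO arrays were above both WT arrays. Snora73a and Snora73b also had KO STZ as their highest array.

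In WT muscle, snoRNAs were higher after STZ. The median difference over the 60 genes was 0.38 on the log2 scale, against 0.0075 over all genes and 0.035 over the 2607 genes brighter than the median snoRNA. STZ was above vehicle for 54 of the 60, where 51.5% of all genes were. A difference of 1.5-fold or more upwards was met by 16 snoRNA genes, against 1.27% of all genes, and one of 1.5-fold or more downwards by 1, against 0.445%. At 2-fold or more, 3 snoRNA genes were higher, against 0.0981% of all genes. These 3 were Snord58b, Snora15 and Snord1b.

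Snord58b lies in the ribosomal protein gene Rpl17. It had an intensity of 30.2 on WT vehicle and 89.8 on WT STZ, and of 32.9 on KO vehicle and 23.9 on KO STZ. The WT STZ value stood apart and the other 3 lay close together, so the STZ difference was 1.46 in WT and -0.41 in KO. Snora15 lies in the chaperonin subunit gene Cct6a. It read 7.30 on WT vehicle, 20.7 on WT STZ, 12.7 on KO vehicle and 10.3 on KO STZ, which gave 1.15 in WT. It is dim, and its WT vehicle value was the lowest of the 4. Snord1b, carried by the noncoding gene Snhg16, read 54.6 on WT vehicle, 118 on WT STZ, 70.6 on KO vehicle and 66.1 on KO STZ, a difference of 1.06 in WT. Next in size came Snord70, from the gene of the box C/D core protein Nop58, at 0.95. It was followed by Snord73b, from the ribosomal protein gene Rps3a1, at 0.89 and by Snora16a, from Snhg12, at 0.78. All 6 of these genes had WT STZ as their highest array.

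A small number of snoRNAs went the other way in WT. Snora47 lies in the zinc-finger gene Zbed3. It had intensities of 121 on WT vehicle, 79.1 on WT STZ, 114 on KO vehicle and 133 on KO STZ. WT STZ was its lowest array and the STZ difference was -0.59. Snord88c lies in 2410002F23Rik. It read 9.15 on WT vehicle, 6.55 on WT STZ, 16.1 on KO vehicle and 19.6 on KO STZ. Both KO arrays were above both WT arrays. The remaining members below 0 were Snord23 at -0.099, Snord118 at -0.096, Snord53 at -0.034 and Snord8 at -0.0064, all near 0. Snord118 is the U8 snoRNA, which is needed for maturation of the large-subunit ribosomal RNA. It was dim, with 9.75 on WT vehicle, 8.89 on WT STZ, 10.02 on KO vehicle and 9.02 on KO STZ.

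In KO muscle, STZ and vehicle were close for most snoRNAs. The median difference was 0.0064, which turned to -0.013 when arrays were centred on their medians, against -0.032 over all genes and -0.073 over the brighter genes, and 31 of 60 were above 0, where 42.8% of all genes were. No snoRNA gene was 1.5-fold or more higher, against 0.445% of all genes, and 1 was 1.5-fold or more lower, against 0.656%. That gene was Snord83b, from the ribosomal protein gene Rpl3, with intensities of 51.2 on WT vehicle, 51.5 on WT STZ, 58.3 on KO vehicle and 35.4 on KO STZ. Its 2 WT values were alike and KO STZ stood below the rest, at a difference of -0.66. The next lowest were Snord111 at -0.43, Snord58b at -0.41, Snora30 at -0.37, Snord72 at -0.36 and Snora34 at -0.34. At the upper end were Snord53 at 0.46, Snord123 and Snora73b both at 0.38, Snora7a at 0.37, Snora73a at 0.35 and Snora75 at 0.32.

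Snora73a and Snora73b, known as U17 or E1, are box H/ACA RNAs needed for the early cuts of the small-subunit ribosomal RNA rather than for a modification. Snora73a read 258 on WT vehicle, 312 on WT STZ, 290.1 on KO vehicle and 371 on KO STZ, and Snora73b read 266, 325, 279 and 365 in the same order. In both, STZ was higher than vehicle in either genotype and KO STZ was the highest array. They are copies of one another in 1 host gene, Snhg3, so their clusters may share signal and they are not independent readings.

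**Figure D2:**
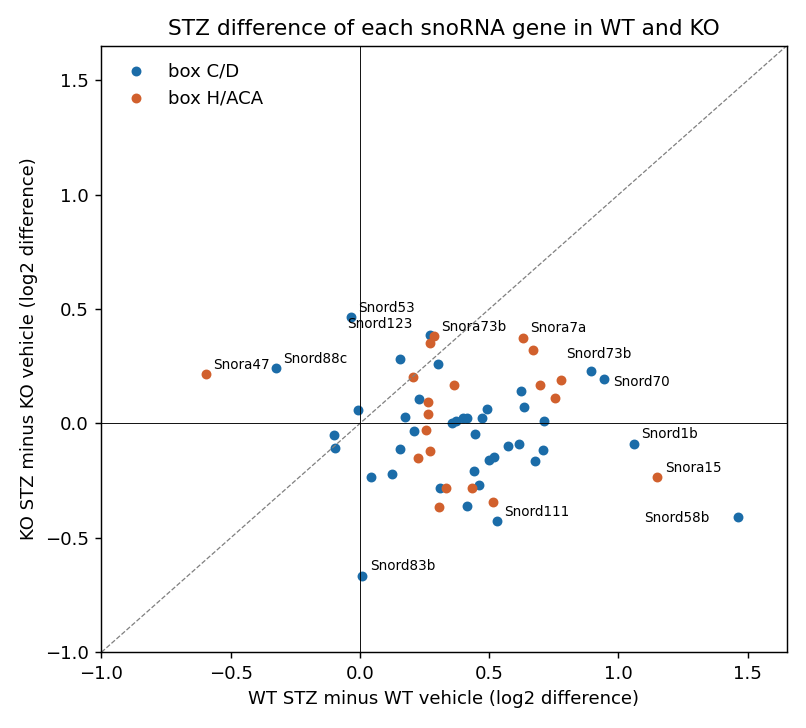
STZ minus vehicle in WT (horizontal axis) against STZ minus vehicle in KO (vertical axis), both as log2 differences, for the 60 snoRNA genes above the level limit; blue points are box C/D, orange points are box H/ACA and the dashed line marks equal differences. Most points lie right of 0 and near 0 vertically, with Snord58b, Snora15 and Snord1b farthest right and Snora47 farthest left.

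The STZ differences of the 2 genotypes, which share no array, had a correlation near 0 across snoRNAs (Pearson r = -0.13, Spearman rho = -0.090, n = 60 genes, a description across genes that share the 4 arrays and in part a host). Among the 6 genes with the largest STZ difference in WT, for example, those in KO ran from -0.41 for Snord58b to 0.23 for Snord73b.

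After STZ, snoRNAs were lower in KO than in WT muscle. The median KO minus WT difference was -0.30, against -0.048 over all genes and -0.15 over the brighter genes. It was -0.16 after quantile normalization and -0.18 after removal of a trend with level, where all genes had medians of 0.0089 and -0.0012. As reported, 11 of 60 were above 0, where 41.8% of all genes were. A difference of 1.5-fold or more downwards was met by 9 snoRNA genes, against 2.81% of all genes, and one upwards by 2, against 0.845%. The WT STZ array that stood high above is the reference here, so this comparison and the STZ comparison in WT are not independent. At 2-fold or more, 4 were lower, against 0.287% of all genes, and 1 was higher, against 0.0528%. The largest difference downwards was that of Snord58b, at -1.76. Snord70 followed at -1.17, with intensities of 118 on WT vehicle, 230.4 on WT STZ, 87.4 on KO vehicle and 101 on KO STZ, so that it was lower in KO under both treatments.

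Snora28, from the translation initiation factor gene Eif5, was likewise lower in KO under both treatments. It read 29.2 on WT vehicle, 51.8 on WT STZ, 21.0 on KO vehicle and 22.9 on KO STZ, a difference of -1.06 after STZ. Snora34, from Kansl2, read 49.8 on WT vehicle, 72.7 on WT STZ, 44.4 on KO vehicle and 34.2 on KO STZ, a difference of -1.01. Snora15 at -0.81 and Snord111, from the splicing factor gene Sf3b3, at -0.80 came next. Snord111 read 49.7, 73.4, 55.8 and 40.5 in the order WT vehicle, WT STZ, KO vehicle and KO STZ. The highest differences were those of Snord88c at 1.19, Snora47 at 0.73, Snord53 at 0.39, Snora21 at 0.27, Snora73a at 0.25 and Snord66 at 0.19. In these 6, WT STZ was not the highest array.

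Snora34 and the dim Snora19 each overlap an annotated microRNA hairpin, which gives a view of their sequence. The hairpins are from the RefSeq annotation of GRCm38.p6, 5′ to 3′, and capitals mark the bases that lie inside the snoRNA gene. For Snora34 these are 73 bases of the 118-base gene, on the minus strand at chr15:98519762-98519878. For Snora19 they are all 56 bases of the gene, on the minus strand at chr19:60774329-60774397, and they end in ACA followed by 3 bases, the ACA box that gives the class its name.
Mir1291: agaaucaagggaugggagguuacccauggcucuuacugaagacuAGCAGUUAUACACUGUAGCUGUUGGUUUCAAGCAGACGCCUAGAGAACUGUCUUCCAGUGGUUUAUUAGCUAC
Mir3084-2: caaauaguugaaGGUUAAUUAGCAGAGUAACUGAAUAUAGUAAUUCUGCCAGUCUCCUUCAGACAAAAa
Neither microRNA had a cluster with its symbol alone, so the Snora34 values above cannot be set beside a reading of the hairpin.

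Under vehicle, the genotypes differed little. The median KO minus WT difference was 0.10, against -0.0039 over all genes and -0.043 over the brighter genes, and 45 of 60 snoRNA genes were above 0, where 49.1% of all genes were. Snord88c passed 1.5-fold upwards, at 0.62, as the 1 member to do so, against 0.581% of all genes, and no snoRNA gene was 1.5-fold or more lower, against 0.777%. After Snord88c came Snora15 at 0.58, Snord15a at 0.46, Snord49a at 0.46, Snord35a at 0.37 and Snord99 at 0.36. Snord15a, from the ribosomal protein gene Rps3, read 23.2 on WT vehicle, 39.3 on WT STZ, 33.4 on KO vehicle and 29.4 on KO STZ. Snord35a, from Rpl13a, read 177, 248, 231 and 235 in the same order, with WT vehicle below the other 3. The lowest differences were those of Snord70 and Snora28, at -0.42 and -0.41, then Snora34 at -0.15, Snord87 at -0.13, Snord53 at -0.10 and Snord8 at -0.089.

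The STZ difference in KO minus that in WT, which uses all 4 arrays, had a median of -0.41 over the snoRNA genes, -0.048 over all genes and -0.11 over the brighter genes. It was above 0 for 9 of the 60, where 42.9% of all genes were. It reached 1.5-fold or more downwards in 24 snoRNA genes, against 3.91% of all genes, and upwards in 1, against 1.76%. At 2-fold or more downwards there were 3, against 0.249% of all genes. Snord58b stood at -1.87, Snora15 at -1.39, Snord1b at -1.15, Snord111 at -0.96, Snora34 at -0.86 and Snord15a at -0.84. At the upper end were Snora47 at 0.81, Snord88c at 0.57, Snord53 at 0.50, Snord66 at 0.13, Snord123 at 0.11 and Snora73b at 0.095. The count of 24 was 13 after quantile normalization and 13 after removal of a trend with level between arrays.

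**Figure D3:**
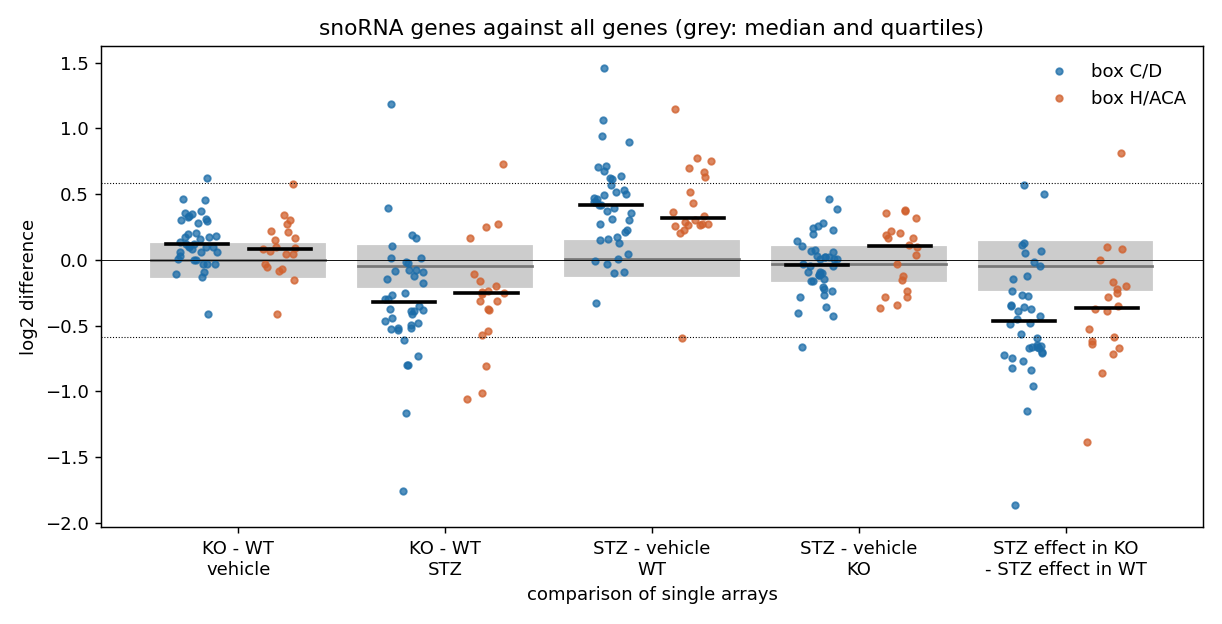
Log2 differences of the snoRNA genes above the level limit in the 5 comparisons, with box C/D and box H/ACA genes side by side; points are genes, black bars are class medians, grey lines and boxes are the median and quartiles of all 13258 genes, and dotted lines mark 1.5-fold. Both class medians lie above the grey box for STZ against vehicle in WT and below it for KO against WT after STZ.

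Box C/D and box H/ACA snoRNAs had medians of the same sign in 3 of the 4 pairwise comparisons, and in the last, STZ against vehicle in KO, the box C/D median lay near 0 and turned to 0.010 after removal of a trend with level. For STZ against vehicle in WT the class medians were 0.41 over 40 box C/D genes and 0.32 over 20 box H/ACA genes. In the same order, 35 and 19 genes were above 0 (51.5% of all genes), and 10 and 6 were 1.5-fold or more higher (1.27%). For KO against WT after STZ the class medians were -0.32 and -0.26, with 6 and 3 genes 1.5-fold or more lower, against 2.81% of all genes. For KO against WT under vehicle they were 0.12 and 0.086. WT STZ was the highest array for 29 of 40 box C/D genes and 16 of 20 box H/ACA genes, against 32.2% of all genes. The classes lay farther apart for STZ against vehicle in KO, with medians of -0.040 and 0.10. The gap of -0.14 between these medians was -0.063 without the level limit. For STZ against vehicle in WT the gap was 0.093, and 0.19 with the level limit at percentile 75. No test of these gaps was possible.

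Members were also grouped by the kind of host gene. Of the 60 genes, 19 lie within the span of noncoding genes, 17 of ribosomal protein genes and 21 of other protein genes. For 3 no host was found. Strand was not compared, and introns were not told apart from exons. Snord71 and Snord8 are among the 19, though the noncoding gene found for each overlaps a protein gene. The median STZ difference in WT was 0.30 for noncoding hosts (18 of 19 above 0), 0.41 for ribosomal protein hosts (17 of 17 above 0) and 0.37 for other protein hosts (17 of 21 above 0). In the same order, 2 of 19, 6 of 17 and 6 of 21 were 1.5-fold or more higher. Of all genes, 51.5% were above 0 and 1.27% were 1.5-fold or more higher. For KO against WT after STZ the medians were -0.26, -0.31 and -0.37. Here 1 of 19, 1 of 17 and 6 of 21 were 1.5-fold or more lower, against 2.81% of all genes. The counts of 1 are near that share. The difference between the kinds of host was not tested. Of the 3 without a host, Snord13 and Snord118 are known to be transcribed from promoters of their own. Snord13, the U13 snoRNA that guides an acetylation of the small-subunit ribosomal RNA, read 172 on WT vehicle, 267 on WT STZ, 171 on KO vehicle and 189 on KO STZ. Its WT STZ value thus stood above the other 3 as in most members with a host, at an STZ difference of 0.62 in WT. Snord13 and Snord89 were named here after their values were seen.

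Members of the same host could be set beside each other in 8 host genes. The noncoding gene Snhg12 carries 4 of the 60. Snora16a read 127 on WT vehicle, 220.3 on WT STZ, 131 on KO vehicle and 149.8 on KO STZ. Snora44 read 336, 406, 373 and 343 in the same order, Snora61 read 80.7, 97.6, 78.8 and 81.1, and Snord99 read 979, 1384, 1255 and 1124. WT STZ was the highest array for all 4, although they belong to both box classes. Their STZ differences in WT ran from 0.26 to 0.78 and their KO minus WT differences after STZ from -0.54 to -0.24 (median -0.28, or -0.14 after quantile normalization and -0.13 after trend removal), and the Snhg12 transcript stood at 0.17 and -0.25. Snhg12 itself was dim, with intensities between 5.81 and 7.63.

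The noncoding gene 2410006H16Rik carries Snord49a, Snord49b and Snord65. Snord49a, a box C/D gene like the other two, read 223 on WT vehicle, 308 on WT STZ, 308 on KO vehicle and 255 on KO STZ, so that WT STZ and KO vehicle were level. Snord49b read 445, 663, 557 and 519.6 in the same order, with WT STZ highest. Snord65 read 110.4, 114, 119 and 100.3, with no array standing far from the rest. Their STZ differences in WT were 0.46, 0.57 and 0.042, a spread from near 0 to above the median snoRNA at 0.38. The host transcript stood at 0.26 in WT and at 0.39 in KO, where all 3 snoRNAs were between -0.27 and -0.10.

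Other host pairs ranged from alike to opposed, among themselves or to their host. Snora73a and Snora73b in Snhg3 differed by at most 0.096 in the 4 pairwise comparisons. Snord88a and Snord88c, both in 2410002F23Rik and both dim, stood at 0.36 and -0.33 for STZ against vehicle in WT and at -0.019 and 1.19 for KO against WT after STZ. Snord11 and Snord70 in Nop58 stood at -0.12 and -1.17 in the latter. Snord73a and Snord73b in Rps3a1 stood at -0.52 and -0.53 there, beside -0.76 for the host transcript, and at 0.31 and 0.89 for STZ against vehicle in WT, beside 0.44. In Ncl, Snord82 of box C/D and Snora75 of box H/ACA stood at 0.37 and 0.67 in WT, beside 0.024 for the host transcript. Snord43 and Snord83b in Rpl3 stood at 0.20 and 0.18 for KO against WT under vehicle, beside -0.76 for the host transcript. For STZ against vehicle in KO they stood at -0.22 and -0.66, beside 0.69. The Rpl3 transcript read 39.9 on WT vehicle, 37.8 on WT STZ, 22.0 on KO vehicle and 37.8 on KO STZ. Both of its differences thus rest on the low KO vehicle reading.

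**Figure D4:**
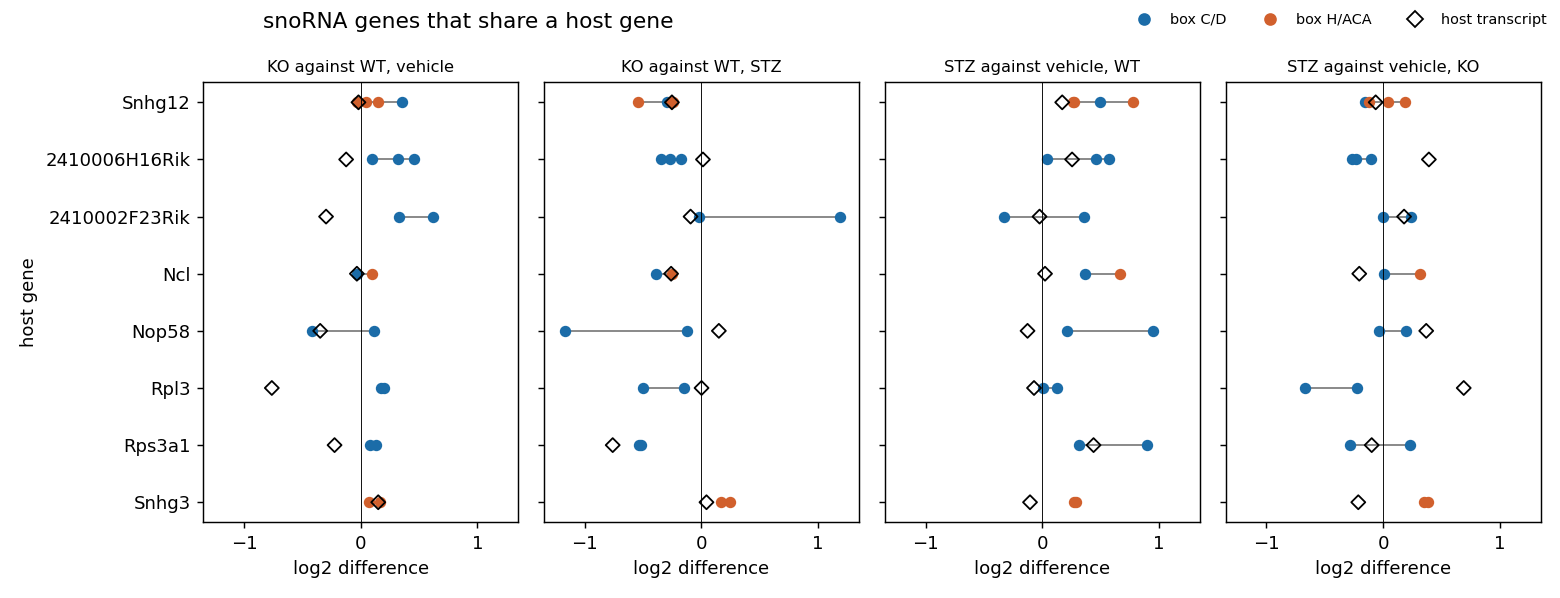
Log2 differences of snoRNA genes that share a host gene, for the 8 hosts with 2 or more members above the level limit, in the 4 pairwise comparisons; blue and orange points are box C/D and box H/ACA genes, lines join the members of a host, and open diamonds are the host transcript. Members of Rps3a1 and Snhg3 lie close to each other in KO against WT after STZ, and those of 2410002F23Rik and Nop58 lie far apart.

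Since intron-borne snoRNAs depend on the promoter of their host, the starts of noncoding hosts are shown. Many mammalian snoRNA hosts and many genes of the translation machinery begin with a pyrimidine tract at the cap, and the string CTTTC was looked for as a simple form of it, in the 50 bases before and the 50 bases from the annotated start. It was found on the gene's own strand in 15 of 48 promoters of snoRNA host genes, in 6 of 13 of noncoding hosts and in 5 of 9 of ribosomal protein hosts, against 12.8% of the 32851 promoters in the table. On either strand it was found in 16 of the 48, against 23.4% of all promoters. In a narrower window around the start, on the gene's own strand, it was found in 7 of the 48, against 3.10% of all promoters. There it was found in 5 of the 13 promoters of noncoding hosts but in 1 of the 9 of ribosomal protein hosts. These 9 promoters cover 9 of 16 ribosomal protein hosts. The sequences below are from RefSeq on GRCm38.p6, 5′ to 3′ on the gene's strand, with CTTTC in capitals. Snhg12 lies at chr4:132308628-132308727 and 2410006H16Rik at chr11:62602827-62602926, both on the plus strand, and they are the hosts with 3 or more members. Snhg16, host of Snord1b, lies at chr11:116671610-116671709 on the plus strand. Snhg3, host of Snora73a and Snora73b, lies at chr4:132353637-132353736 on the minus strand, and Snhg1, host of Snord22, at chr19:8723437-8723536 on the plus strand. Neither has a match in this window.
Snhg12: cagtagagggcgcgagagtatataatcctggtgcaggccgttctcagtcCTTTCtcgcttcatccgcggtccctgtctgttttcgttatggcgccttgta
2410006H16Rik: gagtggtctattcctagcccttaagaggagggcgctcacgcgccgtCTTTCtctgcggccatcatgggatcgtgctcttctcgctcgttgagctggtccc
Snhg16: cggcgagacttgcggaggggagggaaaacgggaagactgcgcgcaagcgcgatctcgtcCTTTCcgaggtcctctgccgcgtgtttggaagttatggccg
Snhg3: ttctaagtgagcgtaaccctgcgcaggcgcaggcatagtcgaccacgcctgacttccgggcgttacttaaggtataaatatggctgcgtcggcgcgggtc
Snhg1: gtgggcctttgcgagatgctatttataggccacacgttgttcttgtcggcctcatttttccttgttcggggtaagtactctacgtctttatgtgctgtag
A match is a description of these letters and not a measured site.

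Host transcripts were set beside the snoRNAs inside them. For 45 snoRNA genes the host transcript was also above the limit, in 34 hosts. For STZ against vehicle in WT the median was 0.40 over these snoRNAs and 0.17 over their hosts, and the snoRNA stood above its host in 37 of 45 pairs. For KO against WT after STZ the medians were -0.31 and -0.16, and the snoRNA stood below its host in 27 of 45. For KO against WT under vehicle they were 0.12 and -0.052, with the snoRNA above its host in 35 of 45. For STZ against vehicle in KO both were near 0, at 0.0038 and -0.023, and the snoRNA stood below its host in 26 of 45. Across the pairs the correlation of the 2 differences was near 0 for STZ against vehicle in WT (Pearson r = 0.088, Spearman rho = 0.083, n = 45 pairs that share arrays and in part hosts). Some hosts were bright, such as Rps12 between 774 and 998. Others were dim, such as Snhg12, host of 4 of the snoRNA genes, between 5.81 and 7.63, and 2410002F23Rik, host of 2, between 8.30 and 11.0. A dim host changes by less than its true fold on this scale, and how far this shaped the counts of pairs was not tested. Snord58b stood at 1.46 where its host Rpl17, read by a dim cluster, stood at -0.0038, and Snord70 at 0.95 where its host Nop58 stood at -0.13. Of the 34 host transcripts, 0 were 1.5-fold or more higher in WT after STZ, a count that is near the share over all genes, 1.27%.

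**Figure D5:**
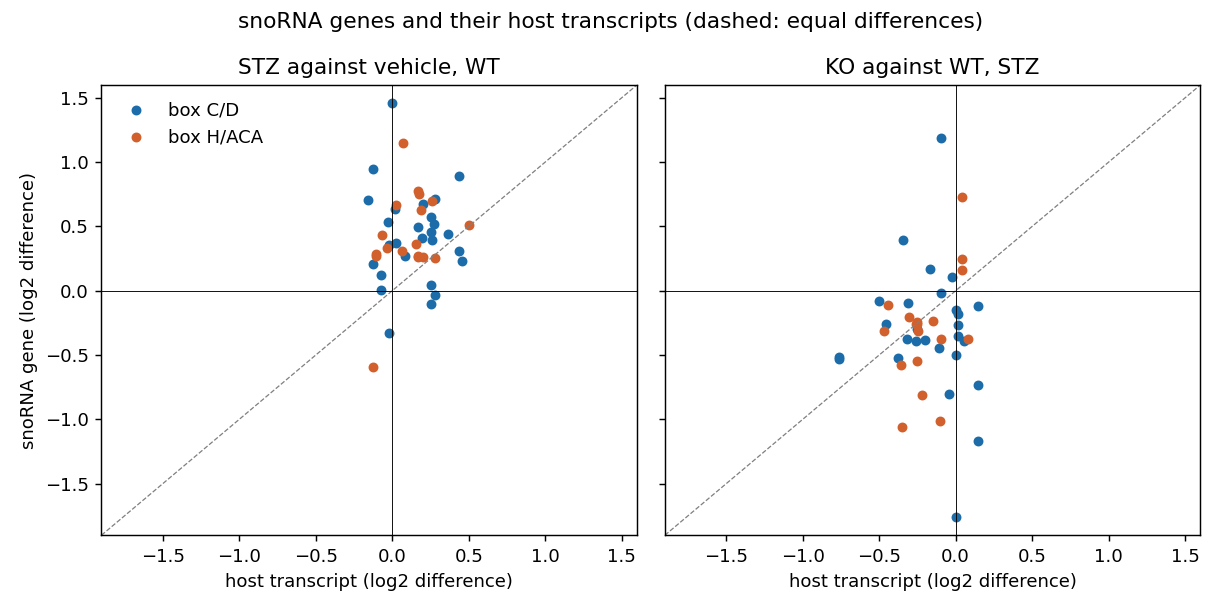
Log2 difference of each snoRNA gene (vertical axis) against that of its host transcript (horizontal axis), for 45 pairs in 34 hosts, for STZ against vehicle in WT and for KO against WT after STZ; the dashed line marks equal differences. In the WT panel 37 of 45 points lie above the line, and the points spread more along the vertical axis than along the horizontal one.

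The genes of the proteins that bind and assemble snoRNAs stood near 0 in the same comparisons. Of 23 genes listed for these proteins 20 were above the limit, with a median of 0.031 for STZ against vehicle in WT and of -0.058 for KO against WT after STZ. Of these, 0 were 1.5-fold or more higher or lower in the first comparison (1.27% and 0.445% of all genes) and 1 was lower in the second (2.81% of all genes), counts near those shares. Dkc1, which encodes dyskerin, read 32.4 on WT vehicle, 37.2 on WT STZ, 33.96 on KO vehicle and 33.0 on KO STZ. Nop58, a core box C/D protein, read 67.3, 61.3, 52.1 and 68.4 in the same order, with WT STZ not at the top. Pih1d1, a subunit of a chaperone complex that assembles snoRNA particles, was the lower gene, at -0.72, with 56.1 on WT vehicle, 58.8 on WT STZ, 51.3 on KO vehicle and 34.3 on KO STZ. A list of 23 RNA polymerase I and early nucleolar genes, all above the limit, had medians of 0.024 and -0.11.

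Other RNA classes were read in the same way. The 69 ribosomal protein genes above the limit had a median of 0.24 for STZ against vehicle in WT, with 52 above 0 (51.5% of all genes), 3 of them 1.5-fold or more higher (1.27%) and 2 lower (0.445%), and of -0.24 for KO against WT after STZ. The 4 small Cajal body RNA genes, relatives of snoRNAs that guide modification of spliceosomal RNA, had medians of 0.45 and -0.096. The 7 genes of spliceosomal, Y, 7S and 5S RNA had medians of 0.38 and -0.34. The 110 microRNA genes had medians of -0.079 and 0.082, with 35 above 0 in the first (51.5% of all genes) and 64 in the second (41.8%). Rpph1, the RNA of the enzyme that cuts transfer RNA precursors, read 1425 on WT vehicle, 1878 on WT STZ, 1442 on KO vehicle and 1411 on KO STZ, with WT STZ alone at the top.

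The imprinted snoRNA clusters known from brain were not read by clusters of their own. No Snord115, Snord116, Snord113 or Snord114 gene had a cluster with its symbol alone. Snhg14, the noncoding host of Snord115 and Snord116, read 8.58 on WT vehicle, 16.5 on WT STZ, 8.06 on KO vehicle and 7.72 on KO STZ, and stood at 0.72 in WT after STZ. Rian, the host of Snord113 and Snord114, read 6.76, 8.45, 7.42 and 8.91 in the same order and was dim throughout. Snora35, which lies in the serotonin receptor gene Htr2c, was among the 13 snoRNA genes below the limit, and Htr2c was below it too. Of the list of noncoding snoRNA hosts and related RNAs, 16 of 22 were above the limit. Their median for STZ against vehicle in WT was 0.15, with 13 above 0, where 51.5% of all genes were.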

How the data were processed

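Gastrocnemius RNA of 4 groups was read on Affymetrix arrays, 1 per group. Per the labels' protocols, total RNA was extracted with the RNeasy Mini Kit, and 4 ug was made into biotin-labelled cRNA. The sources used here do not state which RNA lengths were recovered, so the recovery of RNAs as short as snoRNAs is unknown and was not tested. The authors deposited 1 linear intensity per cluster and array for 41345 clusters; how they corrected background, summarised probes and normalized arrays is not stated in those sources. Of the clusters, 23521 had 1 symbol in the platform annotation, 1814 had several and 16010 were not named there. A gene was read from its brightest 1-symbol cluster (71 snoRNA genes had 1 cluster and 2 had 2). Intensities were taken as log2(intensity + 3.69), the offset being percentile 25 of all values, without further scaling, because array medians on this scale differed by at most 0.035. Depth has no counterpart on arrays; the number of arrays limits the precision.

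A host was the shortest gene, itself no small RNA gene, whose span in RefSeq's GRCm38.p6 gene table contains the snoRNA gene. Strand, which the plan named, was not compared, and introns were not told apart from exons. All 73 snoRNA genes were in the table, and 70 had a host among 56 hosts, of which 43 were measured. For Snord71 and Snord8 the host so found is a noncoding gene that overlaps a protein gene. The build used for the array annotation is not named, so no position of a cluster is given. Of the 56 hosts, 44 had a promoter in the RefSeq table.

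Genes were named by rule: the 6 brightest of each class, the 6 largest differences each way in each comparison, all members of hosts with 3 or more, Klf15 and up to 4 genes per list; others were named after their values were seen. Some of the latter are Snord13, Snord89, Snord11, Snord22, Snord43, Snord73a, Snord88a, Rpph1, Snhg14, Rian and Htr2c. The members and lists were chosen with earlier results of these data known. The counting was tested on simulated data. Alternatives were other offsets, quantile normalization, centring, removal of a trend with level, other level limits, the mean of clusters and one value per host. Python 3.11.15, numpy 2.4.6, pandas 2.3.3, statsmodels 0.14.6 and matplotlib 3.10.9 were used.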

Additional observations from a re-analysis of the deposited data

Results flagged for a closer look

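The median KO minus WT difference of the snoRNA genes as a set had opposite signs under vehicle and after STZ. The medians were 0.10 and -0.30, with a difference of -0.41 between the treatments. The same held within box C/D (0.12 and -0.32, a difference of -0.46) and within box H/ACA (0.086 and -0.26, a difference of -0.36). The vehicle medians of the set and of both classes were below 0.126, the median absolute difference of all genes in that comparison. That value is the size of a typical difference of 1 gene and not the spread of a median over 60 genes. It therefore cannot decide whether the set had a direction under vehicle. Of the 60 genes, 45 were above 0 there, where 49.1% of all genes were, and the median of the set changed sign in 0 of 10 alternatives. For box C/D the STZ differences of the genotypes had medians of 0.41 in WT and -0.040 in KO, but the latter lies near 0 and changed sign in 3 of 10 alternatives (-0.059 to 0.010). None of these differences was tested, since each group had 1 array.

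Single snoRNA genes stood out by the same contrast. Snora15 stood at 0.58 under vehicle and -0.81 after STZ (a difference of -1.39), Snord1b at 0.35 and -0.80 (-1.15) and Snord111 at 0.16 and -0.80 (-0.96). In the STZ comparison, Snord58b stood at 1.46 in WT and -0.41 in KO (-1.87), Snora15 at 1.15 and -0.24, and Snord15a at 0.68 and -0.16 (-0.84). Snora47 went the other way, at -0.59 in WT and 0.22 in KO (0.81). These differences were not tested either.

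Clusters whose annotation gives a snoRNA symbol beside another symbol were left out of the comparisons above and hold a signal of their own. There were 43 of them, with 28 distinct sets of values, of which 23 were above the level limit. For STZ against vehicle in WT their median was 0.26, with 22 of 23 above 0 and 5 of them 1.5-fold or more higher. Over all genes the median was 0.0075, with 51.5% above 0 and 1.27% 1.5-fold or more higher. For KO against WT after STZ the median of these clusters was -0.23, with 3 of 23 above 0. Over all genes it was -0.048, with 41.8% above 0. Which of its symbols such a cluster reads cannot be told apart.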

How the results depend on the processing

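Over 10 alternatives the median of the snoRNA genes kept its sign for STZ against vehicle in WT (0.31 to 0.42) and KO against WT after STZ (-0.33 to -0.16). The same held for KO against WT under vehicle (0.096 to 0.15) and for the difference of STZ effects (-0.48 to -0.35). For STZ against vehicle in KO the median lay near 0 (-0.013 to 0.041) and changed sign in 2 alternatives. Of 55 calls at 1.5-fold, 55 were kept after centring, with an offset of 1, without a level limit and with the mean of clusters, 48 with an offset at percentile 50, 42 after removal of a trend with level and 39 after quantile normalization. The count lower in the difference of STZ effects, 24, was 13 after quantile normalization and 13 after trend removal. Small counts moved as follows. KO higher under vehicle, 1, became 2 with an offset of 1 and 0 with an offset at percentile 50, with the level limit at percentile 75 and without letter-suffixed copies. KO higher after STZ, 2, became 1 with the limit at percentile 75 and 1 without copies. STZ lower in WT, 1, became 0 with the offset at percentile 50. The difference of STZ effects upwards, 1, became 3 with an offset of 1. The median of the 2410006H16Rik members for KO against WT after STZ, -0.27, was -0.071 after quantile normalization and -0.11 after trend removal. The cause was not tested, except that limits and left-out copies drop genes by construction. Leaving out copies was chosen after seeing the data. No paired analysis was possible because each group has 1 array and no replicate number.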
